A study of Mus musculus with 12 samples.

Results

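Goblet cell and mucus genes of the mouse colon were followed as 10 genes chosen by symbol, Muc2, Spink4, Tff3, Fcgbp, Zg16, Agr2, Spdef, Atoh1, Creb3l1 and Klk1, out of 24391 gene symbols in the deposited files. All 10 were present in all 12 libraries and passed the filter on low values. Messenger RNA was sequenced from epithelial cells scraped from the colons of C57BL/6 mice aged 18 weeks, in 3 groups of 4 libraries. The first group was induced with AOM and DSS and treated with curcumin (called curcumin here), the second was induced with AOM and DSS alone (AOM/DSS), and the third was the control. AOM, azoxymethane, is a carcinogen, DSS, dextran sulfate sodium, is a polymer that inflames the colon, and curcumin is a polyphenol of turmeric. No genetic alteration is named for any group, and doses, routes and dates of treatment are not given in the sources used here. Before scraping, the proximal segment and tumours of the right portion were taken out, so the libraries describe the mucosa that remained. Whether each library came from a separate animal is not stated, so the p-values measure the spread between these libraries, which may be technical.

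Goblet cells are the mucus-secreting cells of the intestinal epithelium, and in the colon they build the gel that keeps bacteria away from the surface. The gel is a net of the mucin Muc2, which is folded and joined in the endoplasmic reticulum, glycosylated in the Golgi, packed into granules and released together with smaller proteins. The transcription factor Atoh1 commits crypt cells to the secretory lineages when Notch signalling is low, and Spdef acts after it in goblet cell maturation. In bulk samples, fewer goblet cells and less RNA per goblet cell cannot be told apart, and this holds for every difference given here.

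Promoter sequences of Muc2, Agr2 and Spdef are shown because these 3 genes stand for the gel, its folding and its regulation, and because their levels differed from library to library in similar ways. Each line holds the 250 bases before the annotated start in RefSeq's annotation of build GRCm38.p6, written along the gene's own strand. RefSeq windows were matched for 6 of the 10 members. Capitals mark every match on either strand to 4 short motifs: GGAT, a core bound by ETS factors such as Spdef, CAGCTG, an E-box of the kind bound by helix-loop-helix factors such as Atoh1, TGACGT, the core of a cyclic AMP response element, and TATAA, the core of a TATA box. A match on the other strand appears as the reverse complement of the motif.
Muc2 (chr7:141690090-141690339, plus strand): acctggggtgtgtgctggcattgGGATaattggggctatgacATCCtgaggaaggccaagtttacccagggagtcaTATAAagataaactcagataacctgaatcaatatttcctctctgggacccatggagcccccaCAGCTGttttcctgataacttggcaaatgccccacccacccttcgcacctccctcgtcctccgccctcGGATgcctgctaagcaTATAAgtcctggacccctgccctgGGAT
Agr2 (chr12:35992675-35992924, plus strand): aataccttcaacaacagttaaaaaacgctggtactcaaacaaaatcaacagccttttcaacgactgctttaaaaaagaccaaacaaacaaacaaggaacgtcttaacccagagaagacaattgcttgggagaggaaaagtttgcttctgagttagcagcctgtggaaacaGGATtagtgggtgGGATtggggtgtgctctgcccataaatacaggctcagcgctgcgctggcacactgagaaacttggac
Spdef (chr17:27728952-27729201, minus strand): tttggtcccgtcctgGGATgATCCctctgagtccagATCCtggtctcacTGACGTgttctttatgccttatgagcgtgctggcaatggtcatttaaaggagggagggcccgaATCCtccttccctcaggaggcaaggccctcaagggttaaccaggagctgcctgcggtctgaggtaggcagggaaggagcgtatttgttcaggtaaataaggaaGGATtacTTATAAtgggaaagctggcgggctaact
GGAT was found in 5 of the 6 matched windows, against 74.1% of 32851 mouse windows of the same length, a motif that most windows hold. CAGCTG was found in Muc2 and Fcgbp and in 13% of all windows. TGACGT was found in Spdef and in 6.47% of all windows. TATAA was found in Muc2, Fcgbp and Spdef and in 22.8% of all windows, with a match starting 28 bases before the start in Muc2 and 27 bases before it in Spdef. In Spdef this match overlaps with another on the other strand, and in capitals they read as 1 run. A match describes these letters and is not a binding site.

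Recovered read totals ranged from 5567988 to 15968416 per library. By base composition, 5 libraries formed a GC-rich class, in which genes of high GC content read higher: replicates 0 and 1 of curcumin, replicates 0 and 1 of AOM/DSS, and control replicate 0. The remaining 7 formed an AT-rich class. Values within these library classes are given for each member, from 2 libraries of each treated group and from 1 GC-rich or 3 AT-rich controls, and carry no test. Summed over 7 epithelial markers, among them Epcam and Vil1, levels ranged from 4885 to 8684 FPKM in curcumin, from 4788 to 7578 FPKM in AOM/DSS and from 5213 to 7815 FPKM in control libraries, so the defining markers of the labelled cell type were abundant. Of 12052 tested genes, 1.27% passed the threshold between AOM/DSS and control, 1.08% between curcumin and AOM/DSS and 0.141% between curcumin and control. A gene passed when the adjusted p of limma, a linear model fitted to log2(FPKM + 1) of all tested genes, was below 0.05. FPKM divides the reads of a gene by its length and by the depth of the library, which allows levels of different genes to be set side by side.

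Among the 10 members, 1 gene passed the test in 1 comparison: Spink4 rose in AOM/DSS, to 2.36 times its control mean. In AOM/DSS against control, 1 of 10 members was called, against 1.27% of all tested genes, and 4 were higher at an unadjusted p below 0.05, against 6.31% of all genes. In curcumin against AOM/DSS, limma called 0 of 10 members, against 1.08% of all genes. At an unadjusted p below 0.05 that comparison had 3 members, 2 higher and 1 lower, against 14.5% of all genes. In curcumin against control, limma called 0 of 10 members, against 0.141% of all genes, while 6 members were higher at an unadjusted p below 0.05, against 5.87% of all genes. Run on recovered reads, limma's voom likewise called Spink4 in the first comparison and 0 members in the others.

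Most members had higher levels in both treated groups than in controls. The members were chosen with earlier results known and may vary together, so counts of signs carry no test. In AOM/DSS against control, 9 of 10 members had a difference above 0, with a median of 0.37 on the log2 scale. Of all tested genes, 52.8% were above 0 and their median was 0.02. Tff3 at 0.05 and Zg16 at 0.06 were among the 9. In curcumin against control, 10 of 10 were above 0, with a median of 0.54, where 52.5% of all genes were above 0 with a median of 0.01. In curcumin against AOM/DSS, 6 of 10 were above 0, with a median of 0.05, where 49.1% of all genes were above 0 with a median of -0.01. The members' medians differed between the library classes. In AOM/DSS against control the median was 0.42 among GC-rich libraries, with 9 of 10 members above 0, and 0.10 among AT-rich libraries, with 8 above 0. With the GC class as a covariate, added after seeing the data, it was 0.24. In curcumin against AOM/DSS it was -0.30 among GC-rich libraries, with 3 of 10 above 0, and 0.26 among AT-rich libraries, with 9 above 0, so the sign turned with the class. In curcumin against control it was 0.63, with 8 of 10 above 0, and 0.47, with 10 above 0. The medians over all tested genes lay between -0.01 and 0.02 in these 6 cases. The part of the library class in the members' differences was not tested. The first and last of these comparisons share the control libraries, and the first and second share the AOM/DSS libraries, so they are not independent of each other. Together, the 10 genes took 1.62% ± 0.09 of all FPKM in curcumin, 1.48% ± 0.19 in AOM/DSS and 1.13% ± 0.07 in control libraries (SD, n = 4 each). The share ranged from 1.49% to 1.69% in curcumin and from 1.06% to 1.22% in control libraries, which did not overlap. The AOM/DSS libraries ranged from 1.23% to 1.66%, all above the controls, though the lowest, at 1.229%, was close to the highest control, at 1.218%. This share weighs abundant members most. Spink4 averaged 1348 FPKM in AOM/DSS and 572 FPKM in control libraries, and Zg16 2574 FPKM in curcumin and 1600 FPKM in control libraries. Sums of other sets of genes were not computed, so no background stands beside it.

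**Figure D1:**
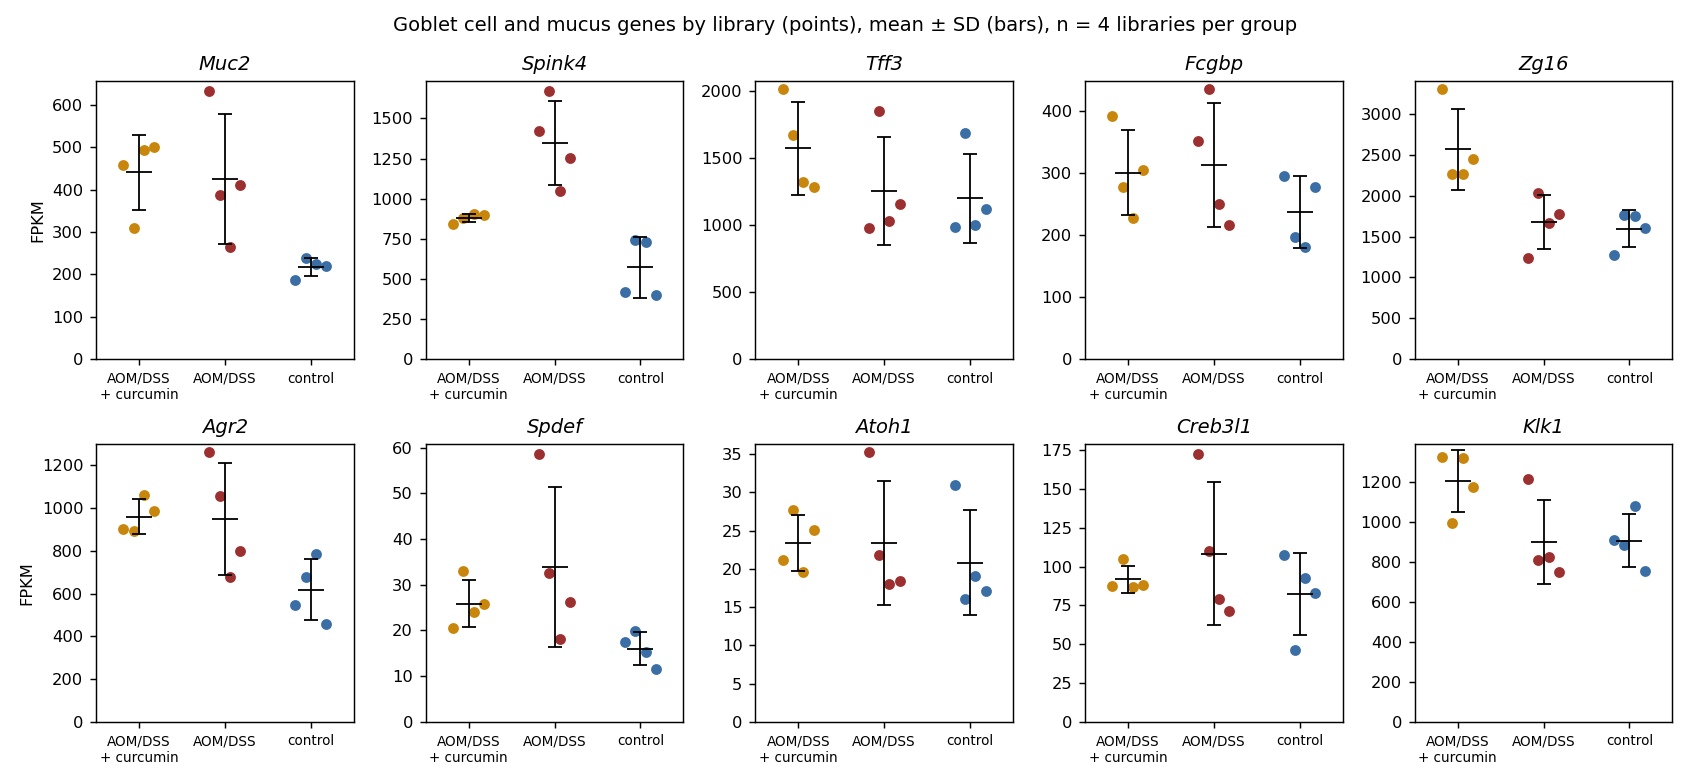
FPKM of each of the 10 genes (vertical axes, from 0) in curcumin, AOM/DSS and control libraries (points, 4 per group), with the mean and SD as black bars. Spink4 was highest in the 4 AOM/DSS libraries, Zg16 in the 4 curcumin libraries, and Muc2 was lowest in the 4 control libraries.

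Spink4, a small secreted peptide of the Kazal-type protease inhibitor family, had 1421, 1669, 1047 and 1256 FPKM in AOM/DSS replicates 0 to 3, against 420.1, 742, 730.5 and 397 FPKM in control replicates 0 to 3. All 4 AOM/DSS libraries lay above all 4 controls, and the controls themselves fell into a lower and a higher pair. On the log2 scale the difference was 1.28 (SE 0.22, 95% interval 0.80 to 1.75), with an adjusted p of 0.014. In curcumin libraries Spink4 had 842, 879, 901 and 897 FPKM, all below the 4 AOM/DSS libraries, as held for 4.27% of all tested genes, and above the 4 controls. Curcumin minus AOM/DSS was -0.59 (SE 0.22, 95% interval -1.07 to -0.12, adjusted p = 0.226), and curcumin minus control was 0.68 (SE 0.22, 95% interval 0.21 to 1.15, adjusted p = 0.234). Neither passed the threshold. Among GC-rich and then AT-rich libraries, curcumin minus AOM/DSS was -0.84 and -0.35, and curcumin minus control was 1.03 and 0.58. The spread of Spink4 was 26.8 FPKM (SD, n = 4) in curcumin, against 263 FPKM in AOM/DSS and 189 FPKM in control libraries.

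The Spink4 call rested on 1 control library and on the shared estimate of spread. Without control replicate 3 the difference was 1.12 with an adjusted p of 0.0545, and with only AOM/DSS and control libraries in the fit the adjusted p was 0.0709. Among GC-rich libraries the difference was 1.87, from 2 AOM/DSS libraries and 1 control, and among AT-rich libraries it was 0.93, from 2 AOM/DSS libraries and 3 controls. Markers of Paneth cells (Lyz1, Mmp7, Defa5, Defa24 and Itln1, of which 2 passed the filter) summed to 11.2 to 229 FPKM in AOM/DSS, against 2.42 to 13.7 FPKM in control libraries. Itln1 is also on the list of other secreted products read below, so this sum does not stand for Paneth cells alone. The 229 FPKM belonged to AOM/DSS replicate 3, without which the Spink4 difference was 1.3 (adjusted p = 0.0355). Markers of B and plasma cells summed to 16.7 to 103 FPKM in AOM/DSS and 10.3 to 36.7 FPKM in control libraries, and macrophage markers to 16.3 to 56.3 FPKM in AOM/DSS and 7.55 to 46.6 FPKM in control libraries. None of these lists had a gene at 0 in every library, and their part in the Spink4 result was not tested.

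Muc2, the gel-forming mucin of the colon, had 634, 387, 265 and 412 FPKM in AOM/DSS replicates 0 to 3, against 186, 238, 225 and 221 FPKM in controls. All 4 AOM/DSS libraries exceeded all 4 controls, which was true of 2.38% of all tested genes. The difference was 0.90 on the log2 scale (SE 0.23, 95% interval 0.40 to 1.40, adjusted p = 0.083) and did not pass the threshold. Of 12 fits that each left out 1 library, 11 did not call this difference either (adjusted p up to 0.22). The exception was the fit without AOM/DSS replicate 2, the lowest of its group (adjusted p = 0.0283). Within the GC-rich class the difference was 1.41 and within the AT-rich class 0.54. In curcumin libraries Muc2 had 458, 310.0, 495 and 501 FPKM, again all above the controls. Curcumin minus control was 1.00 (SE 0.23, 95% interval 0.49 to 1.5, adjusted p = 0.114), with 1.02 and 1.12 within the GC-rich and AT-rich classes. Curcumin minus AOM/DSS was 0.10 (95% interval -0.41 to 0.60, adjusted p = 0.902), and it was -0.39 among GC-rich and 0.59 among AT-rich libraries. The interval does not show that the groups were alike.

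Zg16, a lectin-like mucus protein that binds Gram-positive bacteria, was the most abundant member in each group. It had 3305, 2264, 2273 and 2453 FPKM in curcumin replicates 0 to 3, against 1233, 2039, 1669.6 and 1777 FPKM in AOM/DSS. All 4 curcumin libraries were above all 4 AOM/DSS libraries, as held for 4.95% of all tested genes. The difference was 0.62 on the log2 scale (SE 0.19, 95% interval 0.20 to 1.04) with an adjusted p of 0.158, which did not pass. It was 0.79 among GC-rich and 0.45 among AT-rich libraries. Control libraries had 1276, 1766, 1750.5 and 1608 FPKM, within the range of AOM/DSS, and AOM/DSS minus control was 0.06 (95% interval -0.36 to 0.48, adjusted p = 0.926). Curcumin minus control was 0.68 (95% interval 0.26 to 1.10, adjusted p = 0.184), again with no overlap between the libraries. By class, AOM/DSS minus control was 0.31 among GC-rich and 0.01 among AT-rich libraries, and curcumin minus control 1.10 and 0.47. Some absorptive colonocyte markers moved in the same comparison. Of 9, 4 rose in curcumin against AOM/DSS, where 1.08% of all tested genes were called in either direction. Over all 9, the differences ran from -0.03 to 1.92, with a median of 1.10. Their summed level was 6674 to 10210.5 FPKM in curcumin, 3418 to 5691 FPKM in AOM/DSS and 4016 to 9997.5 FPKM in control libraries. Slc26a3, an apical chloride and bicarbonate exchanger, averaged 582 ± 57.0 FPKM in curcumin and 217 ± 72.8 FPKM in AOM/DSS (SD, n = 4 each; difference 1.48, adjusted p = 0.00792). Whether the colonocyte share bears on the Zg16 levels was not tested.

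The other secreted members differed less. Tff3, a trefoil peptide that helps cells move over a wound, averaged 1569 ± 343 FPKM in curcumin, 1251 ± 403 FPKM in AOM/DSS and 1196 ± 330.1 FPKM in control libraries (SD, n = 4 each). The 3 groups overlapped, each with 1 or 2 libraries well above its others. Differences for Tff3 were 0.05 in AOM/DSS against control (adjusted p = 0.946), 0.35 in curcumin against AOM/DSS (adjusted p = 0.556) and 0.40 in curcumin against control (adjusted p = 0.533). Among GC-rich libraries they were 0.44, 0.45 and 0.89 in that order, and among AT-rich libraries -0.18, 0.25 and 0.07, so the first turned sign with the class. Fcgbp, a large mucus protein with von Willebrand D domains, averaged 301 ± 69.3 FPKM in curcumin, 313 ± 99.9 FPKM in AOM/DSS and 238 ± 57.8 FPKM in control libraries (SD, n = 4 each). Its groups overlapped as well, with adjusted p-values of 0.547 in AOM/DSS against control, 0.976 in curcumin against AOM/DSS and 0.601 in curcumin against control. Fcgbp differences were 0.40, -0.24 and 0.16 among GC-rich libraries and 0.12, 0.18 and 0.30 among AT-rich libraries, and here the second turned sign. Part of the Fcgbp transcript recurs elsewhere: 8.55% of its 50-base stretches occur in 9530053A07Rik, and reads from there may be counted to either gene.

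Agr2, a protein disulfide isomerase of the endoplasmic reticulum that mice need to make Muc2, had 901, 891, 1060.8 and 988 FPKM in curcumin replicates 0 to 3, against 548, 677, 787 and 459 FPKM in controls. All 4 curcumin libraries were above all 4 controls, as held for 3.72% of all tested genes. Curcumin minus control was 0.66 (SE 0.21, 95% interval 0.21 to 1.12, adjusted p = 0.226), and 0.71 within each library class. In AOM/DSS libraries Agr2 had 1261, 1058, 679.5 and 797 FPKM, and the lowest of them was below 1 control. AOM/DSS minus control was 0.61 (95% interval 0.15 to 1.06, adjusted p = 0.21), with 1.07 among GC-rich and 0.23 among AT-rich libraries. Curcumin minus AOM/DSS was 0.05 (95% interval -0.40 to 0.51, adjusted p = 0.941), and its sign turned with the scaling, to -0.01 at a common FPKM sum and -0.08 after quantile normalization. It was -0.37 among GC-rich and 0.48 among AT-rich libraries.

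The transcription factors were the lowest of the 10 genes. Spdef, the ETS factor of goblet cell maturation, had 58.5, 32.5, 18.0 and 26.1 FPKM in AOM/DSS replicates 0 to 3, against 17.4, 19.97, 15.2 and 11.6 FPKM in controls. AOM/DSS replicate 0 stood far above the rest, and replicate 2 overlapped with the controls. The difference was 0.93 on the log2 scale (SE 0.29, 95% interval 0.31 to 1.55, adjusted p = 0.152), which did not pass. Of 12 fits that each left out 1 library, 11 did not call it either (adjusted p up to 0.453). The exception was the fit without AOM/DSS replicate 2 (adjusted p = 0.0469). Among GC-rich libraries the difference was 1.28 and among AT-rich libraries 0.49. In curcumin libraries Spdef had 20.6, 33, 24.1 and 25.8 FPKM, each above the 4 controls. Curcumin minus control was 0.66 (95% interval 0.05 to 1.28, adjusted p = 0.372), and curcumin minus AOM/DSS was -0.26 (95% interval -0.88 to 0.35, adjusted p = 0.745). By class, curcumin minus control was 0.56 among GC-rich and 0.68 among AT-rich libraries, while curcumin minus AOM/DSS was -0.72 and 0.19, of opposite sign.

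Atoh1, the helix-loop-helix factor of the secretory lineages, averaged 23.4 ± 3.71 FPKM in curcumin, 23.4 ± 8.12 FPKM in AOM/DSS and 20.8 ± 6.87 FPKM in control libraries (SD, n = 4 each). Its range was 18.1 to 35.3 FPKM in AOM/DSS, against 16.1 to 30.9 FPKM in controls, and the highest library of each was replicate 0, a GC-rich library. AOM/DSS minus control was 0.16 (95% interval -0.34 to 0.66, adjusted p = 0.809), curcumin minus AOM/DSS 0.04 (adjusted p = 0.966) and curcumin minus control 0.20 (adjusted p = 0.773). The same Atoh1 differences were -0.15, -0.19 and -0.34 among GC-rich libraries and 0.07, 0.27 and 0.33 among AT-rich libraries, so each turned sign. Creb3l1, a transcription factor anchored in the endoplasmic reticulum membrane, averaged 92.0 ± 8.69 FPKM in curcumin, 108 ± 46.1 FPKM in AOM/DSS and 82.4 ± 26.2 FPKM in control libraries (SD, n = 4 each). AOM/DSS replicate 0 had 173 FPKM and control replicate 1 had 46.2 FPKM, and the 3 groups overlapped. AOM/DSS minus control was 0.37 (95% interval -0.24 to 0.97, adjusted p = 0.613), curcumin minus AOM/DSS -0.15 (adjusted p = 0.865) and curcumin minus control 0.22 (adjusted p = 0.794). For Creb3l1 they were 0.35, -0.52 and -0.17 among GC-rich libraries and 0.09, 0.22 and 0.30 among AT-rich libraries, and those of curcumin turned sign. Transcripts of Spdef and Creb3l1 are 59.5% GC, above 94.9% of tested genes, while that of Agr2 is 46.6% GC, above 33.3%. The part of library GC class in their levels was not tested.

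Klk1, tissue kallikrein, is a serine protease that releases kinins. It averaged 1204 ± 155 FPKM in curcumin, 901 ± 211 FPKM in AOM/DSS and 908 ± 135 FPKM in control libraries (SD, n = 4 each). AOM/DSS replicate 0, with 1214 FPKM, overlapped with the curcumin range of 998 to 1326 FPKM, while the other 3 AOM/DSS libraries lay at 751 to 827 FPKM. Curcumin minus AOM/DSS was 0.44 (95% interval 0.05 to 0.82, adjusted p = 0.278), curcumin minus control 0.41 (95% interval 0.02 to 0.79, adjusted p = 0.379) and AOM/DSS minus control -0.03 (95% interval -0.41 to 0.36, adjusted p = 0.967). Among GC-rich and then AT-rich libraries, Klk1 differed by 0.21 and 0.66 in curcumin minus AOM/DSS, by 0.34 and 0.47 in curcumin minus control, and by 0.13 and -0.19 in AOM/DSS minus control. Klk1 belongs to a cluster of near-identical genes: 28.4% of its 50-base stretches occur in 13 other genes, most of them in Klk1b5, so its level is uncertain where the counting could split such reads.

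**Figure D2:**
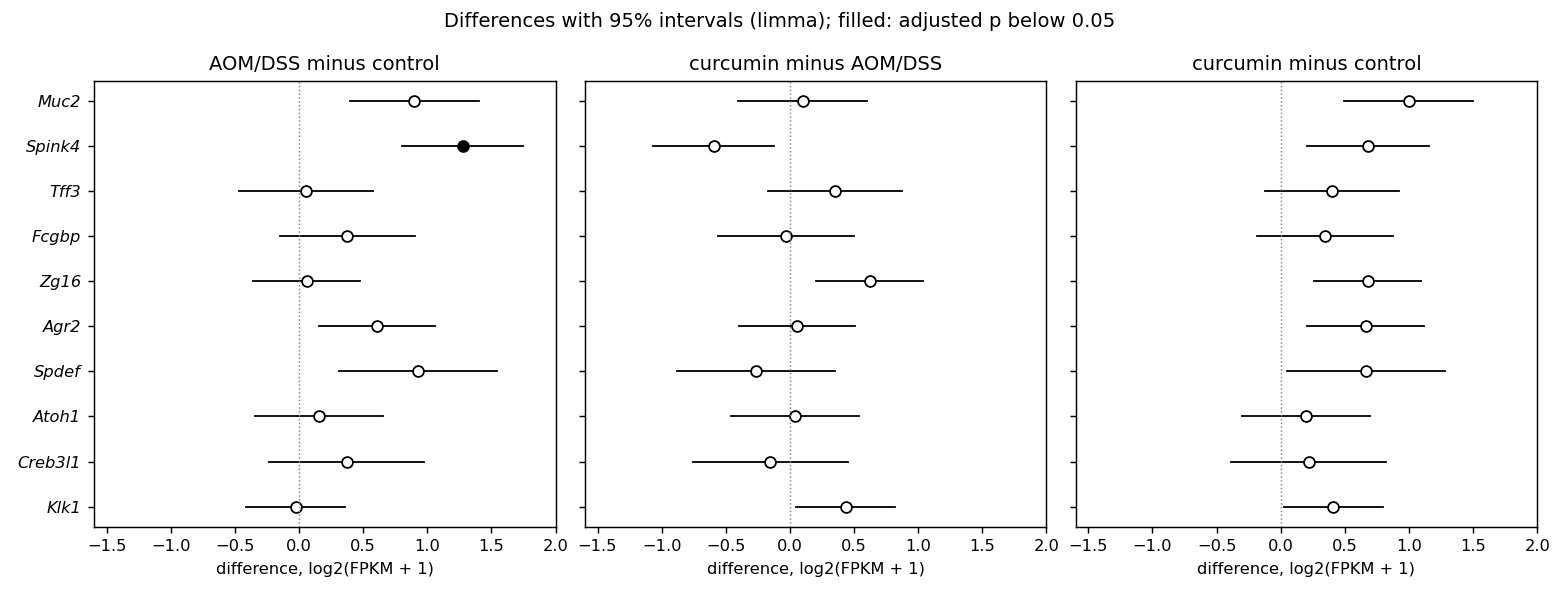
Difference on the log2(FPKM + 1) scale (horizontal axes) for each gene in each of the 3 comparisons (panels, from left: AOM/DSS against control, curcumin against AOM/DSS, curcumin against control), with 95% intervals from limma as lines and a filled point where the adjusted p was below 0.05. The filled point is Spink4 in AOM/DSS minus control at 1.28; all 10 points of curcumin minus control lie above 0.

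By mean level, Zg16 came first in each group, and the transcription factors Creb3l1, Spdef and Atoh1 came last. Over all 12 libraries Zg16 ranked 5th of all genes by mean FPKM, Tff3 17th, Klk1 44th, Spink4 57th, Agr2 71st, Muc2 230th and Fcgbp 290th. The order in curcumin was Zg16, Tff3, Klk1, Agr2, Spink4, Muc2, Fcgbp, Creb3l1, Spdef and Atoh1. In AOM/DSS Spink4 took place 2, with 1348 ± 263 FPKM, against place 5 in controls, with 572 ± 189 FPKM (SD, n = 4 each). In controls Fcgbp stood above Muc2 and Atoh1 above Spdef, but the libraries of both pairs overlapped. Neighbours whose libraries did not overlap were Zg16 and Tff3, Spink4 and Muc2, Fcgbp and Creb3l1, and Creb3l1 and Spdef in curcumin. In AOM/DSS they were Klk1 and Muc2, Fcgbp and Creb3l1, and Creb3l1 and Spdef, and in controls Spink4 and Fcgbp, Muc2 and Creb3l1, and Creb3l1 and Atoh1.

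Ratios of FPKM between members within a library are not moved by the scaling of that library. Those given first were chosen after the values were seen and carry no test. Spink4 over Zg16 was 1.15, 0.819, 0.627 and 0.707 in AOM/DSS replicates 0 to 3, against 0.329, 0.420, 0.417 and 0.247 in controls. In curcumin libraries it was 0.255, 0.388, 0.397 and 0.366, within the control range and below all 4 AOM/DSS libraries. Spink4 over Klk1 was 0.635 to 0.881 in curcumin, 1.17 to 2.05 in AOM/DSS and 0.462 to 0.838 in control libraries. Spink4 over Tff3 was 0.419 to 0.701 in curcumin, 0.905 to 1.46 in AOM/DSS and 0.355 to 0.733 in control libraries. The AOM/DSS libraries stood alone in each of these ratios. Spink4 over Muc2, by comparison, was 1.79 to 2.84 in curcumin, 2.24 to 4.32 in AOM/DSS and 1.80 to 3.24 in control libraries, and the 3 groups overlapped.

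Of the 45 possible pairs of members, 7 had ratios that did not overlap between AOM/DSS and control libraries, against 6.93% of all pairs of tested genes above 0 in every library. Of these 7, 4 involved Spink4, and the others were Muc2 over Zg16, Muc2 over Klk1 and Agr2 over Klk1. Muc2 over Zg16 was 0.514, 0.190, 0.159 and 0.232 in AOM/DSS replicates 0 to 3, against 0.129 to 0.146 in controls, and Agr2 over Klk1 was 0.822 to 1.30 in AOM/DSS, against 0.603 to 0.765 in controls. Between curcumin and AOM/DSS 4 of 45 pairs did not overlap, against 10% of all pairs, and each of the 4 involved Spink4. Between curcumin and control 1 pair of 45 did not overlap, Muc2 over Klk1, against 8.15% of all pairs. The counts in these last comparisons are no higher than the background.

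**Figure D3:**
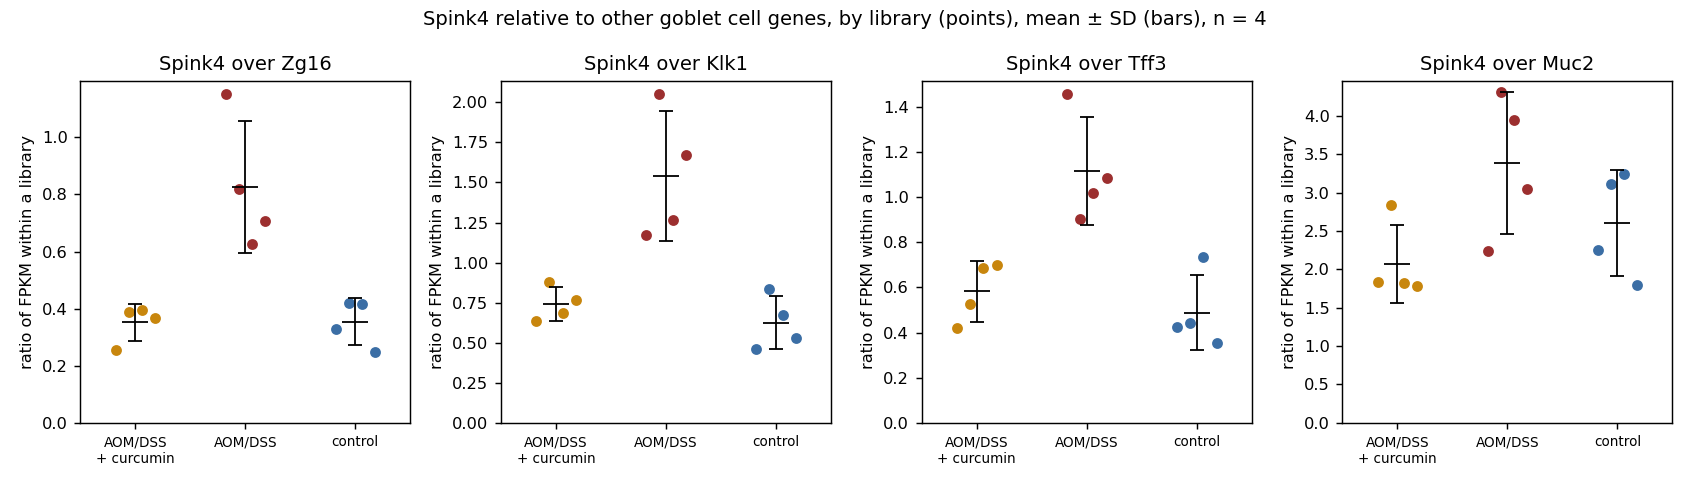
Ratio of Spink4 FPKM to Zg16, Klk1, Tff3 and Muc2 FPKM within each library (vertical axes, from 0; points, 4 per group, with mean and SD as black bars) in curcumin, AOM/DSS and control libraries. Spink4 over Zg16 is 0.627 or more in each AOM/DSS library and 0.420 or less in each curcumin and control library, while Spink4 over Muc2 overlaps between the groups.

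Members did not move as 1 block across the libraries. AOM/DSS replicate 0 had the highest value of 5 members, AOM/DSS replicate 1 of 2 and curcumin replicate 0 of 3. AOM/DSS replicate 0 was also the lowest of all 12 libraries for Zg16 and Tff3. The mean of the members' standardized log2 values, in SDs from each gene's mean, was 0.70, 0.42, 0.30 and 0.46 in curcumin replicates 0 to 3 and 0.98, 0.67, -0.50 and -0.26 in AOM/DSS replicates 0 to 3. In control replicates 0 to 3 it was -0.57, -0.65, -0.53 and -1.0. The 2 AOM/DSS libraries above 0 are the GC-rich ones, and the 2 below 0 are the AT-rich ones. Across the 12 libraries, this mean correlated most with Agr2 among the members (r = 0.909), followed by Muc2 (r = 0.859) and Spdef (r = 0.830), and least with Tff3 and Zg16 (r = 0.412 each). Taken within groups, the correlation of Zg16 was -0.13 and that of Agr2 0.796. These values describe 12 libraries that share groups, depth and GC class, and each member is part of the mean.

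**Figure D4:**
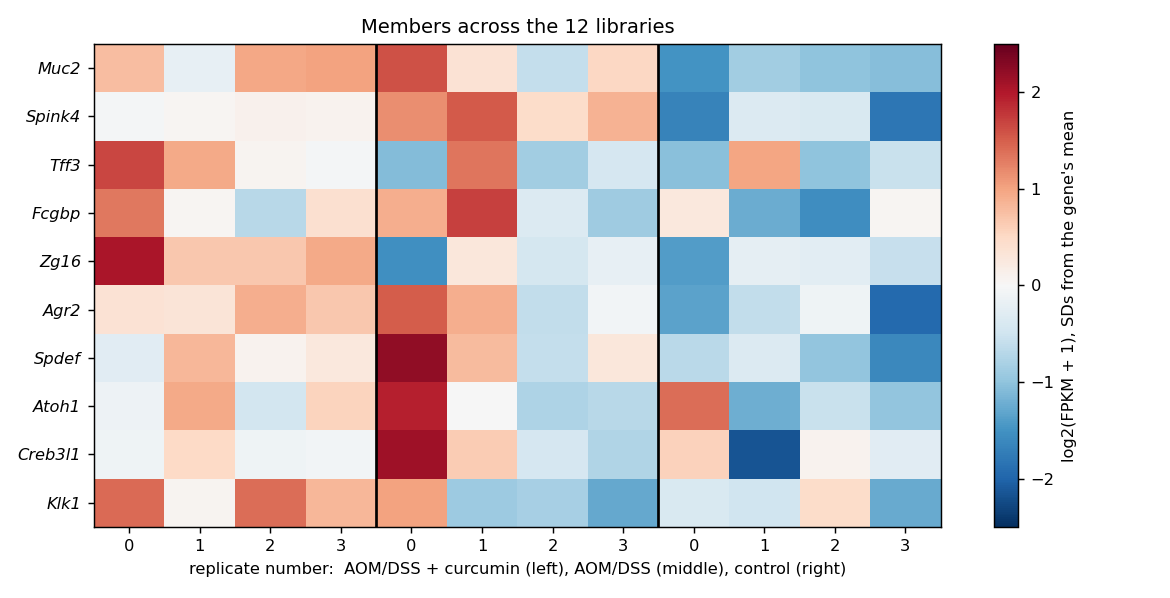
Level of each member (rows) in each of the 12 libraries (columns; curcumin left, AOM/DSS middle, control right, replicates 0 to 3 in each) as log2(FPKM + 1) in SDs from the gene's own mean, red above and blue below. AOM/DSS replicate 0 is the highest library for 5 members and the lowest for Zg16 and Tff3.

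Outside the 10 members, the 8 tested genes whose levels over the 12 libraries were most like the members' mean were Tpsg1, Slc39a7, Kcnh3, Isg20, Sec61a1, Tmed3, Krtcap2 and Selm, with Pearson r between 0.879 and 0.931. Within groups, r was between 0.725 and 0.853. Tpsg1, a membrane-anchored tryptase, averaged 24.2 ± 4.92 FPKM in curcumin, 23.5 ± 8.27 FPKM in AOM/DSS and 13.4 ± 2.47 FPKM in control libraries (SD, n = 4 each; adjusted p = 0.168 for AOM/DSS minus control and 0.186 for curcumin minus control). Sec61a1, the channel through which new proteins enter the endoplasmic reticulum, averaged 99.6 ± 13.2 FPKM in curcumin, 103 ± 14.3 FPKM in AOM/DSS and 77.6 ± 3.58 FPKM in control libraries (SD, n = 4 each). Its 4 AOM/DSS libraries were all above the controls, with an adjusted p of 0.178. None of the 8 passed the threshold in any of the 3 comparisons, the closest being Kcnh3, a potassium channel, in AOM/DSS minus control (1.08, adjusted p = 0.0512). These genes were picked for their likeness, so their group levels are a description.

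The wider mucus programme was read from 8 further lists. Apart from Tgm3 and Il4ra in curcumin against AOM/DSS, voom called the same genes of these lists as limma. Of all tested genes, an unadjusted p below 0.05 was found for 6.31% higher and 7.15% lower in AOM/DSS against control, 7.59% higher and 6.86% lower in curcumin against AOM/DSS, and 5.87% higher and 6.31% lower in curcumin against control, and the counts that follow stand against these shares. Of 23 tested genes of a list of other goblet cell genes, such as the endoplasmic reticulum stress sensor Ern2 and the transcription factor Xbp1, limma called 0 in each comparison. At an unadjusted p below 0.05, 7 were higher and 1 lower in AOM/DSS against control, 0 in curcumin against AOM/DSS, and 7 higher and 1 lower in curcumin against control. Their median differences were 0.18, 0.01 and 0.30 in the order just given. Its most abundant genes were Oit1, with 1039 ± 63.96 FPKM in curcumin, 918 ± 138 FPKM in AOM/DSS and 929 ± 107 FPKM in control libraries, and Stard10 with 519 ± 173, 506 ± 132 and 448 ± 80.4 FPKM (SD, n = 4 each). Neither passed the test. Of 9 tested genes for other secreted products, limma called 0. At an unadjusted p below 0.05, 2 were higher in AOM/DSS against control, 1 was higher and 2 lower in curcumin against AOM/DSS, and 0 were found in curcumin against control. Lypd8, an antibacterial protein of the colon surface, averaged 4960 ± 1237 FPKM in curcumin, 4803 ± 773 FPKM in AOM/DSS and 5322 ± 1297 FPKM in control libraries (SD, n = 4 each), above each of the members. Mptx1, the next in level, averaged 1188 ± 326, 999.8 ± 558 and 1554 ± 381 FPKM in the same order (SD, n = 4 each). Its AOM/DSS minus control was -0.84 (adjusted p = 0.425). Curcumin minus AOM/DSS was 0.44 (adjusted p = 0.699) and curcumin minus control -0.39 (adjusted p = 0.753) for Mptx1.

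Mucin glycosylation held called genes in both directions. Of 27 tested genes, 1 rose and 1 fell in AOM/DSS against control, 1 rose in curcumin against AOM/DSS, and 0 passed in curcumin against control by limma, where 3 were higher and 1 lower at an unadjusted p below 0.05. At that level AOM/DSS against control had 3 higher and 3 lower, and curcumin against AOM/DSS 4 higher and 8 lower. Galnt12, which attaches the first sugar of O-glycans, had 53.6, 50.2, 41.9 and 47.8 FPKM in AOM/DSS replicates 0 to 3, against 22.6, 28.8, 31.1 and 25.5 FPKM in controls. All 4 were above all 4, and the difference was 0.82 (SE 0.13, adjusted p = 0.00901), called under all 24 alternatives. Galnt12 had 32.7 to 43.0 FPKM in curcumin libraries (curcumin minus AOM/DSS -0.30, adjusted p = 0.301). St3gal4, which adds terminal sialic acid, had 179, 281, 219 and 134 FPKM in AOM/DSS replicates 0 to 3, against 349, 377, 358 and 444 FPKM in controls, a difference of -0.95 (SE 0.19, adjusted p = 0.0354). In curcumin it had 343 to 449 FPKM, a difference of 0.95 from AOM/DSS (SE 0.19, adjusted p = 0.0336), and these comparisons share the AOM/DSS libraries. Leaving out any one of 9 libraries, among them each control, ended the first St3gal4 call (adjusted p up to 0.139), and any one of 7, among them each curcumin library, the second (up to 0.111). Both were also lost with the replicate number as a block (0.0771 and 0.0772), without a filter (0.0668 and 0.0666) and with only the groups compared (0.108 and 0.086). The St3gal4 level is uncertain, since 14.1% of its exon bases overlap 4930581F22Rik on the opposite strand and the strand setting of the counting is not stated. St6galnac6, another sialyltransferase and the most abundant gene of the list, averaged 345 ± 41.9 FPKM in curcumin, 382 ± 58.1 FPKM in AOM/DSS and 327 ± 8.71 FPKM in control libraries (SD, n = 4 each), with no call.

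Enzymes that act on secreted mucus were 5, of which 1 fell in AOM/DSS against control. Tgm3, a transglutaminase that cross-links Muc2 in the mouse colon, had 272, 316, 526 and 197 FPKM in AOM/DSS replicates 0 to 3, against 923, 694, 675 and 856 FPKM in controls. The groups did not overlap, and the difference was -1.34 (SE 0.24, adjusted p = 0.0169), lost without control replicate 0 (adjusted p = 0.0524), control replicate 3 (0.067) or AOM/DSS replicate 0 (0.0552) and with only the groups compared (0.0769). In curcumin libraries Tgm3 had 618 to 728 FPKM, all above AOM/DSS (difference 1.08, SE 0.24, adjusted p = 0.0522), which missed the threshold, though voom called it. Of these 5 enzymes limma called 0 in curcumin against AOM/DSS, with 3 higher and 1 lower at an unadjusted p below 0.05, and 0 in curcumin against control, with 0 at that level. Clca1, a secreted metalloprotease that cleaves Muc2, averaged 778 ± 118 FPKM in curcumin, 538 ± 129 FPKM in AOM/DSS and 603 ± 106 FPKM in control libraries (SD, n = 4 each; curcumin minus AOM/DSS 0.55, adjusted p = 0.213). Clca1 is also on the list of other secreted products, so the counts of both lists include it. Beside these, 3 of 9 colonocyte markers fell in AOM/DSS against control, where 1.27% of all tested genes were called in either direction. The median difference over the 9 markers was -0.65, and their part in the Tgm3 and St3gal4 results was not tested.

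Of 20 tested regulators of secretory cell fate, 1 rose in AOM/DSS against control. Il4ra, the receptor subunit shared by IL-4 and IL-13, had 6.30, 9.75, 12.4 and 13.2 FPKM in AOM/DSS replicates 0 to 3, against 4.06, 4.6, 3.52 and 5.58 FPKM in controls (difference 1.04, SE 0.20, adjusted p = 0.0262). The call was lost without control replicate 0 (adjusted p = 0.0657), 1 (0.0504) or 2 (0.0579) or AOM/DSS replicate 3 (0.0773), without a filter (0.0549) and with only the groups compared (0.092). In curcumin it had 4.16 to 5.83 FPKM, below all 4 AOM/DSS libraries (difference -0.88, adjusted p = 0.0553), a difference that voom called. In curcumin limma called 0 regulators against AOM/DSS, with 1 higher and 4 lower at an unadjusted p below 0.05, and 0 against control, with 1 lower. White blood cells also use this receptor, and the B and plasma cell and macrophage sums given with Spink4 were higher in AOM/DSS by their medians, at 51.5 against 24.5 FPKM and 39.7 against 24.1 FPKM in controls. Their part was not tested. Elf3 and Klf4, epithelial transcription factors and the most abundant genes of this list, averaged 404 ± 36.9 and 241 ± 75.2 FPKM in AOM/DSS, against 461 ± 89.4 and 255 ± 37.7 FPKM in controls (SD, n = 4 each), with no call in any comparison. Of 12 genes of granule exocytosis, limma called 0 in each comparison, with 1 lower at an unadjusted p below 0.05 in each comparison of curcumin and 0 in AOM/DSS against control. Vamp8, a vesicle fusion protein, averaged 266 ± 44.0 FPKM in curcumin, 226 ± 24.6 FPKM in AOM/DSS and 261 ± 72.0 FPKM in control libraries, and Stxbp2, a syntaxin-binding protein of granule release, 60.5 ± 14, 49.9 ± 7.13 and 49.7 ± 5.10 FPKM (SD, n = 4 each).

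The tested membrane mucins and kallikreins gave no calls. Of 10 listed membrane mucins, 5 were found among the deposited symbols and 4 were tested, of which limma called 0. At an unadjusted p below 0.05, 1 was higher in AOM/DSS against control and 1 lower in curcumin against AOM/DSS. At that level curcumin against control had 1 higher and 1 lower. Muc13 averaged 736 ± 120.2 FPKM in curcumin, 1023 ± 162 FPKM in AOM/DSS and 959 ± 146 FPKM in control libraries (SD, n = 4 each; curcumin minus AOM/DSS -0.47, adjusted p = 0.206). Muc4 averaged 8.40 ± 1.91 FPKM in curcumin, 9.40 ± 3.5 FPKM in AOM/DSS and 6.15 ± 0.903 FPKM in control libraries (SD, n = 4 each). Of 6 tested kallikreins other than Klk1, limma called 0. At an unadjusted p below 0.05 there were 0 in AOM/DSS against control, 1 higher and 1 lower in curcumin against AOM/DSS, and 3 higher and 1 lower in curcumin against control. Klk1b5 averaged 44.8 ± 7.47 FPKM in curcumin, 32.9 ± 11.7 FPKM in AOM/DSS and 31.5 ± 6.57 FPKM in control libraries (SD, n = 4 each), far below Klk1, with which it shares sequence. Klk15 went the other way in curcumin, with 4.24 ± 1.91, 16.3 ± 17.4 and 12.8 ± 3.11 FPKM in the same order (SD, n = 4 each). AOM/DSS replicate 1 alone had 42.3 FPKM of Klk15. Curcumin minus AOM/DSS was -1.36 (adjusted p = 0.191) and curcumin minus control -1.44 (adjusted p = 0.232) for Klk15. Its level is uncertain, since 54.7% of its exon bases overlap other annotated genes, though none among the deposited symbols.

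**Figure D5:**
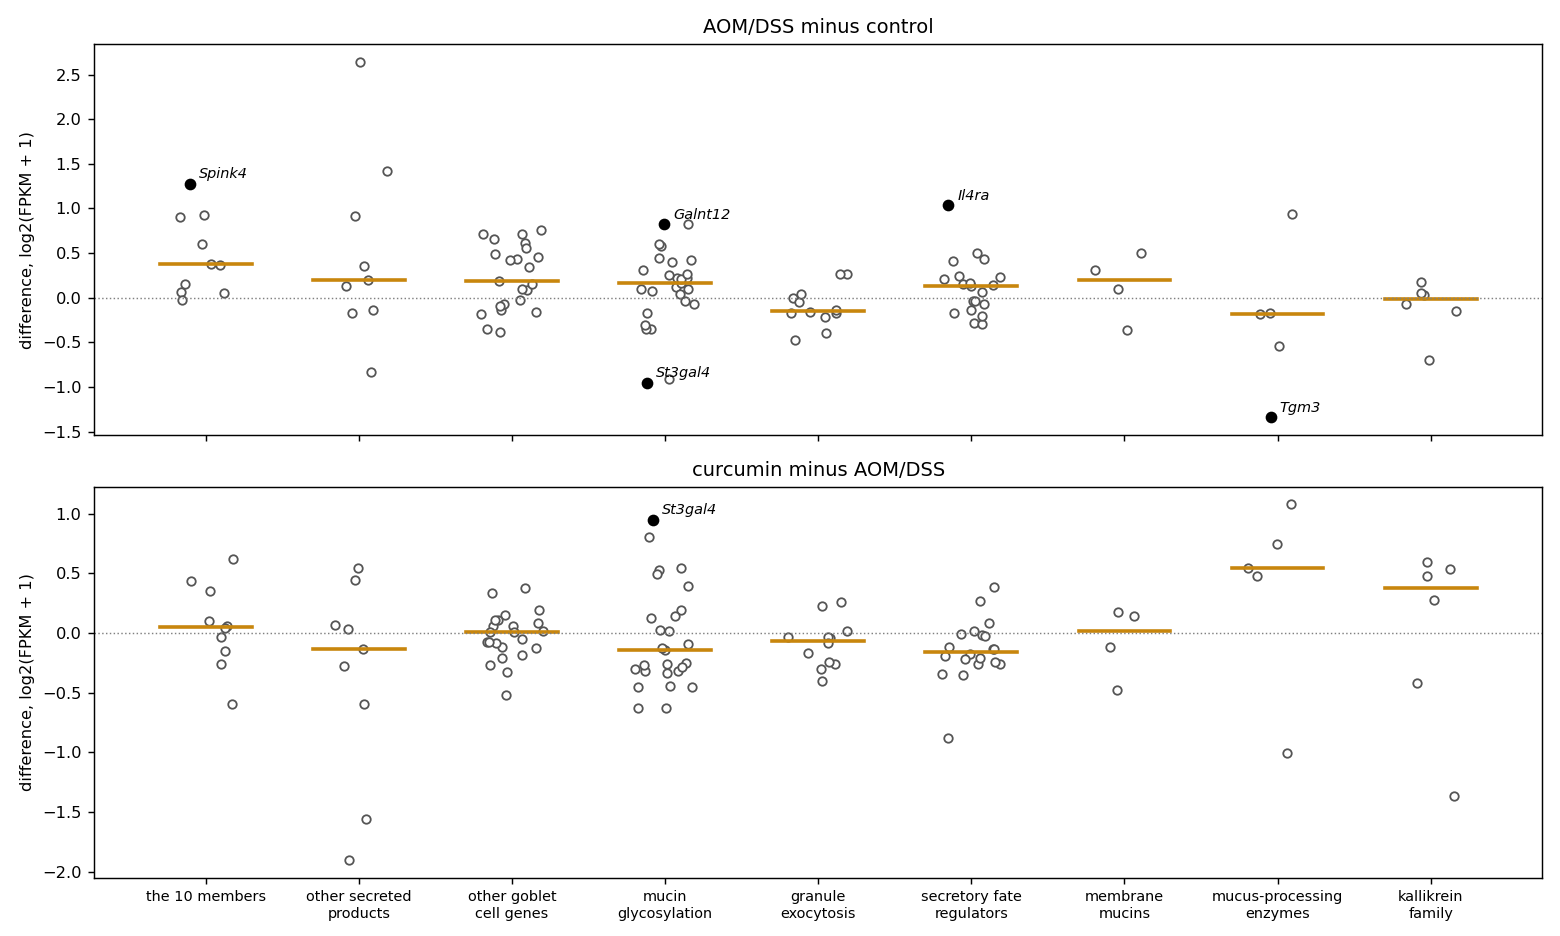
Difference on the log2(FPKM + 1) scale (vertical axes) of each tested gene (points) of the 10 members and of 8 further lists, for AOM/DSS minus control (upper) and curcumin minus AOM/DSS (lower), with list medians as orange lines. Filled and named points had an adjusted p below 0.05: Spink4, Galnt12, St3gal4, Il4ra and Tgm3 in the upper panel, and St3gal4 in the lower.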

How the data were processed

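Messenger RNA of 12 libraries was analysed, 4 per group, with groups taken from the labels. The deposited values are FPKM per gene symbol, made by the authors, in headerless files of 1 library each. Per the submitters' processing notes, the tools were R 3.4.0, DESeq2 1.14.1, featureCounts 1.5.1, Picard, Bowtie2 2.2.6 and TopHat2 2.1.1, given without roles, and the build was mm9. The strand setting and annotation are not given in the sources used here, and how reads in overlapping or near-identical genes were assigned is unknown. Every value of the 19233 genes above 0 was a whole multiple of a step set by gene and library, within 0.001. A gene above 0 in only 1 library meets this by construction. The steps gave back reads, 171 (Atoh1) to 55985 (Muc2) per member and library. Counting error therefore adds little for the members beside the spread between libraries.

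The test was limma 3.58.1 (R 4.3.3) on log2(FPKM + 1), with eBayes' trend on mean level and Benjamini-Hochberg adjustment over the 12052 genes that reached 1 FPKM in at least 4 libraries. The scale understates changes of low genes. A single model held all 12 libraries and the 3 group means, leaving 9 residual degrees of freedom, and intervals are 95%. The fit was tested on simulated data, in the order AOM/DSS against control, curcumin against AOM/DSS and curcumin against control. It found 60, 66 and 74 of 100 genes changed 2-fold, and 96, 93 and 96 of 100 changed 4-fold. False calls were 8, 6 and 11. The simulated counts were drawn gene by gene, with no GC class or other effect shared within a library. These rates may therefore not hold for the real libraries. A 2-fold change can therefore be missed, and a gene that was not called is not shown to be unchanged. The members and the lists were chosen with earlier results of these data known. All members are named. Of each further list, genes past the threshold and the 2 of highest mean FPKM are named, and of other genes the 8 most like the members' mean. Ern2, Xbp1 and Slc26a3 were named outside this rule, the last after its values were seen. Fam3d was read under its symbol Oit1. Exon overlap, shared 50-base stretches and GC content came from GENCODE transcripts of a later build than mm9, matched by symbol, and 11969 of the 12052 genes had a GC value. Promoter windows are RefSeq's, in GRCm38.p6. Libraries whose deviations correlated positively with the GC content of genes form the GC-rich class. Libraries with the same replicate number did not deviate together throughout, so the numbers were not used to pair them.

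Alternatives changed the pseudocount (0.1 or 0.5), the filter (none, or 5 FPKM), the scaling (a common sum, or quantiles), the trend, library weights, the libraries in the fit and the replicate block, used voom on the recovered reads, or left out each library. A covariate for the GC class was added after seeing the data.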

Additional observations from a re-analysis of the deposited data

Results flagged for a closer look

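In groups of 4, a library was picked out when its gap to the nearest other library divided by the group's range exceeded Dixon's 95% critical value. This happened in 3 of 33 groups checked, and chance gives about 1 in 20. Creb3l1 in curcumin replicate 1 had 105 FPKM, against 87.2 to 88.3 FPKM in the other 3 curcumin libraries (gap over range 0.941). Klk1 in AOM/DSS replicate 0 had 1214 FPKM, against 751 to 827 FPKM in the other 3 AOM/DSS libraries (0.836). The summed level of the 10 members in curcumin replicate 0 was 9368 FPKM, against 7451 FPKM in the lowest curcumin library (0.851). That library also had the highest FPKM total over all genes, 565893. As a share of all FPKM its members took 1.66%, within the curcumin range of 1.49% to 1.69%, so by share it did not stand out. All 3 libraries were of the GC-rich class, and the part of that class was not tested.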

How the results depend on the processing

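Each member was refitted under 24 alternatives per comparison. The filter, the trend, the replicate block and libraries outside a comparison do not alter a member's difference. Its direction was therefore fixed under those settings, and the counts that follow include them. In AOM/DSS minus control, 223 of 240 values kept direction and side of the threshold, 2 lost the threshold, 2 gained it and 13 changed sign; in curcumin minus AOM/DSS 225 kept both and 15 changed sign; in curcumin minus control 235 kept both, 4 gained the threshold and 1 changed sign. Counts of called genes, 153, 130 and 17 in the same order of comparisons, were 238, 272 and 40 with the GC class as a covariate and 288, 468 and 491 with library weights. With only the groups compared, the first pair had 54 and 85. For curcumin minus control there were 7 without a filter, 11 at a pseudocount of 0.1 and 27 by voom. With the replicate number as a block the counts were 82, 86 and 2, but same-numbered libraries correlated in their deviations at 0.46, -0.29, -0.22 and -0.07 for AOM/DSS and control, 0.04, 0.35, 0.30 and 0.36 for curcumin and AOM/DSS, and 0.12, -0.33, 0.28 and -0.01 for curcumin and control. In no comparison were all 4 above 0.1, so the numbers were not taken to pair them, although 3 of 4 were for curcumin and AOM/DSS. Under the block Spink4 kept its call (adjusted p = 0.0273) and St3gal4 lost both of its calls (0.0771 and 0.0772). Leaving out 1 library gave 53 to 200, 48 to 152 and 4 to 35. Members called in AOM/DSS minus control were 0 with only the groups compared and 0 to 3 when 1 library was left out (0 without control replicate 3; 3 without AOM/DSS replicate 2, where Muc2 and Spdef joined Spink4). In curcumin minus control 4 were called with library weights: Agr2, Spink4, Zg16 and Muc2, with adjusted p-values over all alternatives of 0.021 to 0.518, 0.0229 to 0.53, 0.0463 to 0.381 and 0.0107 to 0.3. The causes were not tested. Signs turned for small differences. In AOM/DSS minus control, Tff3 was -0.0216 and Klk1 0.0813 with library weights, and Klk1 0.0316 by voom; without 1 library Tff3 ran from -0.15 to 0.229, Zg16 from -0.0463 to 0.199, Atoh1 from -0.0505 to 0.357 and Klk1 from -0.177 to 0.063. In curcumin minus AOM/DSS, Agr2 was -0.0106 at a common FPKM sum and -0.0775 by quantiles, and Atoh1 -0.0246 at a common sum and -0.0569 with library weights; without 1 library Muc2 ran from -0.104 to 0.314, Fcgbp from -0.191 to 0.146, Agr2 from -0.0916 to 0.205, Spdef from -0.511 to 0.0375, Atoh1 from -0.0632 to 0.247 and Creb3l1 from -0.32 to 0.1. In curcumin minus control, Creb3l1 ran from -0.0343 to 0.367. With 4 libraries a group, small differences cannot be told from none.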

Other observations

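Several mucus genes of other organs were at or near the floor of these libraries. Tff1, Tff2, Muc5ac, Muc5b and Muc6, the trefoil peptides and gel mucins of stomach and airway, did not pass the filter, and their highest value in any library was 1.38 FPKM. Muc15 was listed at 0 in every library. Of 25 kallikreins other than Klk1, 19 did not pass the filter, with a highest value of 1.29 FPKM, and 8 were listed at 0 throughout.

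Markers of the other secretory lineages were read beside the goblet genes. Enteroendocrine markers summed to 240.5 to 463 FPKM in curcumin, 86.6 to 276 FPKM in AOM/DSS and 76.8 to 249.8 FPKM in control libraries. Tuft cell markers summed to 17.1 to 24.5 FPKM in curcumin, 15.5 to 34.5 FPKM in AOM/DSS and 11.2 to 37.6 FPKM in control libraries. Limma called 0 of the 7 tested enteroendocrine markers and 0 of the 6 tested tuft cell markers. At an unadjusted p below 0.05, up to 3 of a list were found in a comparison. Of all tested genes, 5.87% to 7.59% were found at that level in each direction, depending on the comparison. A count of 3 in a list of 7 or 6 genes is above these shares, and its cause was not tested. Erythroid markers summed to 25.9 to 37.1 FPKM in curcumin, 17.5 to 326 FPKM in AOM/DSS and 58.8 to 326 FPKM in control libraries.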
